A study of Tursiops truncatus with 28 samples.

Results

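The mitochondrial 12S and 16S ribosomal RNA genes were described in RNA sequencing of archived skin from 28 common bottlenose dolphins (Tursiops truncatus). They were taken as the rows of the deposited expression table that lie on the mitochondrial sequence NC_012059.1, are at least 900 bases long and end before the mRNA genes begin. This gave 2 of the 36 mitochondrial rows and of the 24091 rows in all. The table gives each row as a sequence and an interval with no gene name, so 12S and 16S are names by position in the vertebrate mitochondrial gene order, as are the mRNA names below. The 12S row spans bases 73 to 1046 (974 bases) and the 16S row starts at base 1114 and is 1577 bases long. Neither overlaps another row of the table.

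The skin was collected from wild animals during health assessments in Barataria Bay, Louisiana, with 1 library per animal. The earliest session, July 2016, gave 9 females. June 2017 added 11 animals, of which 3 were males and 8 females, and September 2017 added 8, of which 3 were males and 5 females. The labels give no treatment, no age and no untreated group, and no male was sampled in 2016. Where both sexes enter, comparisons with July 2016 therefore use a sex effect estimated from 2017 alone. Those of ratios use females only. Year and season cannot be told apart in any comparison with July 2016. The rows carry no gene names, so the tissue label was not checked against skin markers.

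The mitochondrial genome is transcribed as long precursors in which transfer RNAs separate many of the other genes, and both ribosomal RNA genes lie at the start of the heavy-strand transcript. The 12S RNA is the RNA of the small subunit of the mitochondrial ribosome and the 16S RNA that of the large subunit, and the ribosome translates the mRNAs of the same genome. Those mRNAs encode subunits of the respiratory chain and of ATP synthase.

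Expression was given as FPKM, fragments scaled to the length of the row and to the mapped fragments in its library, so that levels of different genes can be compared. Summed FPKM lay between 815690 and 1078077 per library. Absolute depth is unknown. Relative depth, read from the steps between low values, spanned 1.94-fold over the libraries. The sources used here do not say whether ribosomal RNA was removed or polyadenylated RNA selected before sequencing, so the level of the ribosomal RNA rows relative to the mRNA rows describes these libraries. In bulk skin, fewer cells of a type and less RNA per cell cannot be told apart.

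Both ribosomal RNA rows were measured in all 28 libraries, and both stood far below most mitochondrial mRNA rows. The 12S row averaged 282 ± 61.7 FPKM (SD, n = 28), with 168 FPKM in the lowest library, 281 in the median and 401 in the highest. The 16S row averaged 229 ± 31.3 FPKM, with 167 FPKM in the lowest library, 226 in the median and 286 in the highest. By mean level they ranked 310 and 383 among the 13192 rows that averaged at least 1 FPKM. FPKM times kilobases of row, which is proportional to the share of fragments, averaged 275 ± 60.05 for 12S and 362 ± 49.3 for 16S. The longer 16S row thus drew more fragments although its level per length was lower.

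The 10 mitochondrial mRNA rows, each at least 500 bases long and starting after base 2700, gave the scale for comparison. Shorter mRNA genes were left out, also from every sum of mRNA rows. The COX1 row, which encodes the core catalytic subunit of cytochrome c oxidase, was highest at 11031 ± 2834 FPKM. The rows of ATP6, a proton channel subunit of ATP synthase, and of COX2 and COX3, further subunits of cytochrome c oxidase, averaged 4339, 4271 and 3600 FPKM. Next came ND4 at 1986, CYTB, the cytochrome b of complex III, at 1130, ND1 at 708, ND5 at 422, ND6 at 365 and ND2 at 219.7 FPKM. The ND genes encode subunits of complex I. The 12S and 16S rows therefore stood between ND6 and ND2, the lowest of the 10 mRNA rows.

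Neighbours in this order were compared within libraries by a permutation test that flipped the sign of each library's log2 difference, with Benjamini-Hochberg adjustment for 11 pairs. The 12S row was above the 16S row in 24 of 28 libraries, by a mean of 0.28 ± 0.27 on the log2 scale (adjusted permutation p = 3.14e-05). The 12S row was above ND6 in 14 libraries and below it in 14 (adjusted permutation p = 0.682). The 16S row was above ND2 in 19 libraries and below it in 9, by a mean of 0.38 ± 1.03 on the log2 scale (adjusted permutation p = 0.0776). Among these low rows, therefore, the mean shift of 12S over 16S passed the test, although it was about as large as its SD between libraries and the ranges of the rows overlapped. The order of 12S and ND6, and that of 16S and ND2, was not resolved.

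**Figure D1:**
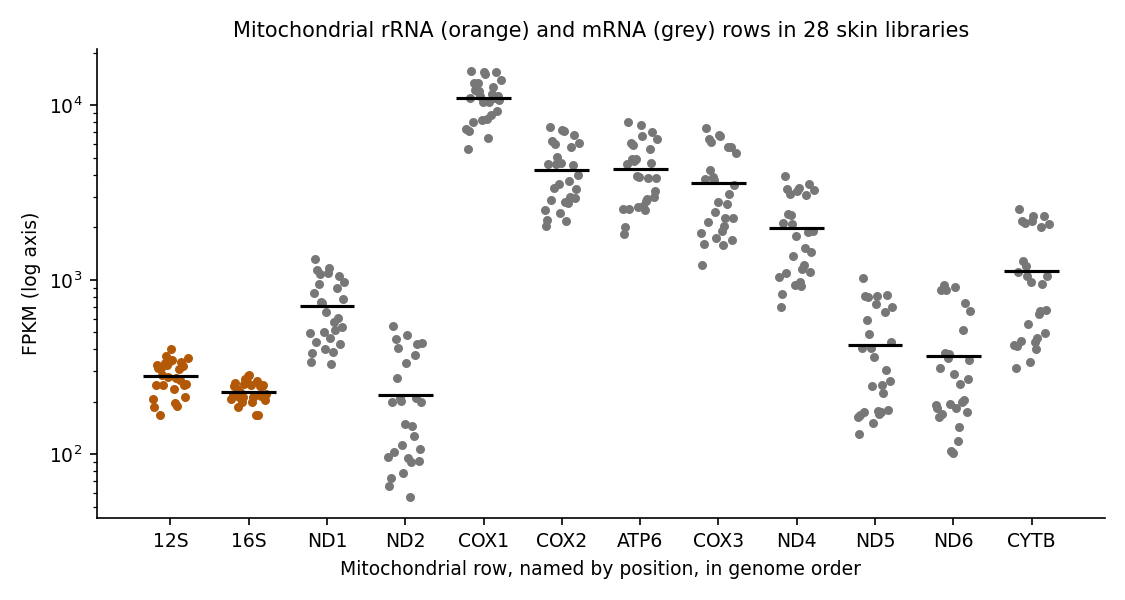
Level of the 2 ribosomal RNA rows and the 10 mitochondrial mRNA rows in each of the 28 libraries, in FPKM on a log axis. Each point is a library and the bar is the mean of the row. The 12S and 16S points form narrow bands, 12S between 168 and 401 FPKM and 16S between 167 and 286 FPKM, whereas the ND6 and ND2 points, at similar mean levels, spread over more than 9-fold.

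The ribosomal RNA rows took a small share of the mitochondrial signal. Together they held 0.0556% ± 0.00926 of a library's summed FPKM, against 3.03% ± 1.08 for the mRNA rows (SD, n = 28). Weighted by length, they drew 2.16% ± 0.665 of the fragments of both kinds of row, between 1.25% and 3.55% over the libraries. The summed mRNA level exceeded the summed ribosomal RNA level 54.5-fold on average, from 30.2-fold in July 2016 female 3 to 89.2-fold in July 2016 female 5. The extremes of this ratio thus fell within the same session and sex.

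The ribosomal RNA rows varied less between animals than the mRNA rows did. The coefficient of variation was 21.8% for 12S and 13.6% for 16S, against 38.0% for the summed mRNA level and between 25.7% (COX1) and 73.6% (ND6) for single mRNA rows. From the lowest to the highest library, 12S differed 2.39-fold and 16S 1.71-fold, whereas the summed mRNA level differed 3.93-fold. The smallest such range of any mRNA row was 2.80-fold, for COX1.

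The difference in spread was tested on log2 FPKM by swapping the centred values of the rows within libraries, a test chosen after these values had been seen and adjusted over 3 pairs. The SD of 12S was 0.33 on the log2 scale and that of the summed mRNA level 0.56, which is 1.68-fold wider (adjusted permutation p = 0.00159). The SD of 16S was 0.20, against which the mRNA spread was 2.77-fold wider (adjusted permutation p = 0.00012). Of the ribosomal RNA rows, 16S was the steadier: the SD of 12S was 1.65-fold that of 16S (adjusted permutation p = 0.00335). As a description, among the 730 rows that averaged 100 to 500 FPKM, 27.7% had a smaller SD of log2(FPKM + 1) than 16S and 78.8% a smaller SD than 12S. The low spread of 16S was thus shared by many rows of similar level, and 12S varied more than most of them.

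By session, the 12S row was lowest on average in July 2016. It averaged 256 ± 58.0 FPKM in July 2016 (n = 9; lowest 168, median 251, highest 326), 299.6 ± 69.7 FPKM in June 2017 (n = 11; lowest 189, median 324, highest 401) and 289 ± 49.4 FPKM in September 2017 (n = 8; lowest 213, median 288, highest 355). The 16S row averaged 222 ± 23.1 FPKM in July 2016 (lowest 186, median 220.2, highest 257), 237 ± 37.5 FPKM in June 2017 (lowest 168, median 248, highest 286) and 227 ± 31.2 FPKM in September 2017 (lowest 167, median 234, highest 263). The sessions overlapped widely for both rows, and the 16S means lay within 1 SD of each other.

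Session and sex were tested with limma on log2(FPKM + 1) in an additive model of all 28 libraries over the 13192 rows, with Benjamini-Hochberg adjustment over those rows and a call at an adjusted p under 0.05. Both ribosomal RNA rows were far above the filter, a mean of 1 FPKM, in every library. For June 2017 against July 2016, 7.24% of the tested rows were called, and 0 of the 2 ribosomal RNA rows. The log2 difference of 12S was 0.33 (SE 0.13; 95% interval 0.05 to 0.60), with an unadjusted p of 0.0207 and an adjusted p of 0.140. That of 16S was 0.14 (SE 0.09; interval -0.05 to 0.33; limma adjusted p = 0.420), and 0.24 with quantile normalization. None of the 10 mRNA rows was called in this comparison, and their median difference was -0.08, beside -0.04 over all rows tested.

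For September 2017 against July 2016, 1.95% of rows were called, and again 0 of the 2 ribosomal RNA rows. The log2 difference was 0.33 for 12S (SE 0.15; interval 0.03 to 0.64; unadjusted p = 0.0323, limma adjusted p = 0.270) and 0.10 for 16S (SE 0.10; limma adjusted p = 0.713). The 16S value was 0.19 without September 2017 female 2, 0.21 with quantile normalization and 0.03 in females only, none past the threshold. The mRNA rows had a median difference of 0.35, 0 of 10 called, beside 0.00 over all rows. This comparison and the one before it share the July 2016 libraries. For 12S the interval lay above 0 in each, but neither passed the adjustment over all rows.

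For September 2017 against June 2017, 0.0379% of rows were called and 0 of the 2 ribosomal RNA rows. The log2 difference was 0.01 for 12S (SE 0.13; interval -0.27 to 0.28; limma adjusted p = 0.992) and -0.04 for 16S (SE 0.09; interval -0.23 to 0.15; limma adjusted p = 0.898). The interval of 12S thus covers changes up to about 1.21-fold higher in September. All 10 mRNA rows had a positive difference there, with a median of 0.35 on the log2 scale, but 0 of 10 were called and the lowest limma adjusted p among them was 0.575.

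The males were compared within the sessions that held both sexes. In June 2017, 12S measured 198, 273 and 189 FPKM in the 3 males, against 237 to 401 FPKM with a median of 340 in the 8 females. In September 2017 it measured 213, 254 and 355 FPKM in the 3 males, against 308, 268, 338, 322 and 251 FPKM in the 5 females. In June, 2 of the 3 males lay below every female, whereas the September males included both the lowest and the highest value of that session.

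The 16S row measured 212, 217 and 168 FPKM in the June males, against 199 to 286 FPKM with a median of 256 in the June females. It measured 250.1, 204 and 223 FPKM in the September males, against 263, 167, 248, 216 and 245 FPKM in the September females. The sexes overlapped in both sessions, and September males lay inside the range of the females.

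Across sessions, 12S averaged 247 ± 62.1 FPKM in the 6 males and 317 ± 47.2 FPKM in the 13 females of 2017. The limma difference of males from females was -0.38 on the log2 scale for 12S (SE 0.14; interval -0.67 to -0.09), with an unadjusted p of 0.0123 and an adjusted p of 0.864. For 16S it was -0.18 (SE 0.10; interval -0.38 to 0.02; limma adjusted p = 1), and -0.10 without June 2017 male 3. In this comparison 0.0910% of rows were called and 0 of the 2 ribosomal RNA rows. The 10 mRNA rows all had negative differences with a median of -0.37, none called, beside -0.03 over all rows.

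Males and females were sampled together on 5 days of 2017, which held 6 males and 8 females. On these days the mean 16S level was lower in the males on 5 of 5 days, for example 212 FPKM in 1 male against 262 FPKM in 2 females on day 15 of June, and 227 FPKM in 2 males against 232 FPKM in 2 females on day 20 of September. The mean 12S level was lower in the males on 4 of 5 days, and on day 21 of September it was 355 FPKM in 1 male against 279.6 FPKM in 2 females. With sampling day as a block, added after the data were seen, the male minus female difference was -0.18 for 16S (SE 0.08; interval -0.35 to -0.02; unadjusted p = 0.0327, limma adjusted p = 0.855). For 12S it was -0.29 (SE 0.13; interval -0.58 to -0.004; unadjusted p = 0.0475, limma adjusted p = 0.856). The direction was thus the same as in the model without the day, and neither row passed the adjustment over all rows.

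The change of September from June was also compared between the sexes. The difference between males and females in that change was 0.44 on the log2 scale for 12S (SE 0.28) and 0.33 for 16S (SE 0.19), each with a limma adjusted p of 1, and 0% of rows were called. These values moved in both directions with the male left out. The 12S value was 0.24 without September 2017 male 3, and 0.61 without June 2017 male 2 or September 2017 male 1. The 16S value was 0.22 without June 2017 male 3, and 0.40 without June 2017 male 2 or September 2017 male 2. With the day block the 12S and 16S values were 0.26 and 0.18, again with a limma adjusted p of 1.

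**Figure D2:**
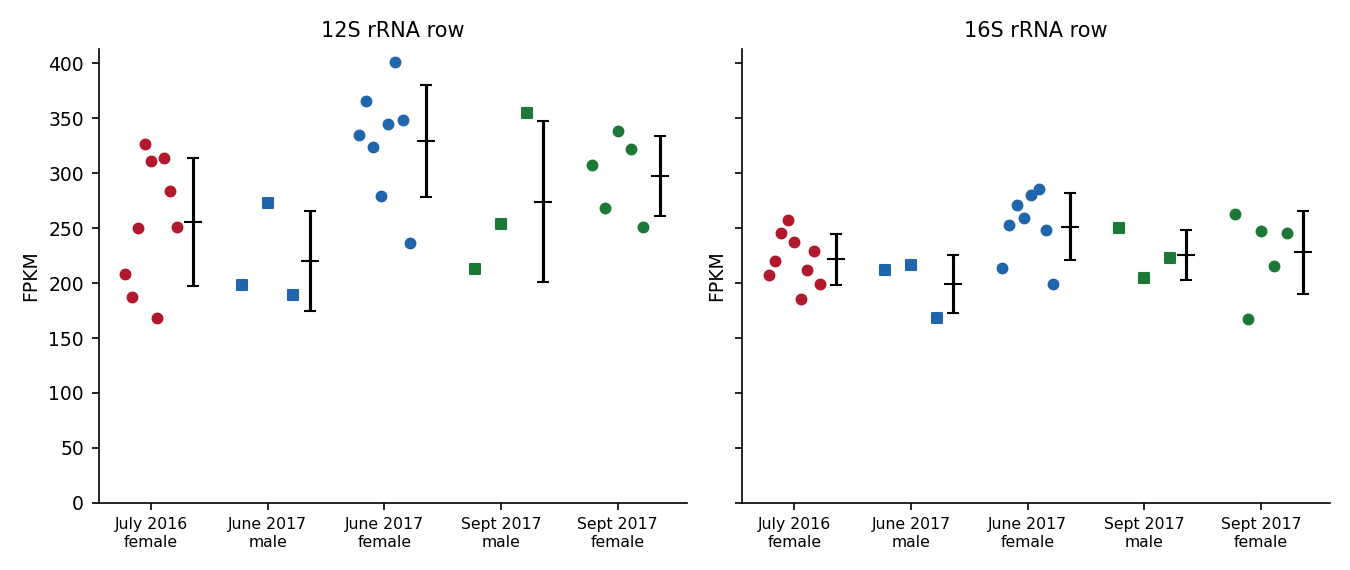
FPKM of 12S and of 16S in each library, by session and sex, with 1 point per library (squares are males, circles females) and the group mean ± SD beside the points. The highest 12S value, 401 FPKM, is a June 2017 female and the lowest, 168 FPKM, a July 2016 female, and all groups overlap the July 2016 females in both panels.

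Within July 2016 the labels give the day of sampling, which allowed a comparison of days 15 to 19 (4 females) with days 11 to 13 (5 females). The 12S row averaged 254 ± 63.0 FPKM on the late days and 257 ± 61.2 FPKM on the early days (exact permutation test over 126 assignments, adjusted p over 5 measures = 0.960). The 16S row measured 186, 212, 229 and 199 FPKM on the late days, against 207, 220.2, 246, 257 and 238 FPKM on the early days. The mean late minus early difference of 16S was -0.18 on the log2 scale, and the ranges overlapped between 207 and 229 FPKM (exact permutation p = 0.0873, adjusted p = 0.337). The larger differences were in the mRNA rows. The summed mRNA level averaged 32024 ± 10361 FPKM on the late days and 24412 ± 15131 FPKM on the early days (log2 difference 0.52, adjusted exact permutation p = 0.516). The log2 ratio of ribosomal RNA to mRNA averaged -6.07 on the late days and -5.46 on the early days (difference -0.61, exact permutation p = 0.135, adjusted p = 0.337). The log2 ratio of 16S to 12S differed by -0.16 (adjusted exact permutation p = 0.516), and this value ran from -0.30 to -0.06 with 1 library left out. None of the 5 measures passed the threshold.

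The ratio of 16S to 12S does not depend on the scaling of a library and was examined next. It averaged 0.838 ± 0.160 over the 28 libraries and ran from 0.624 in September 2017 female 2 to 1.18 in July 2016 female 2. The 16S row exceeded 12S in 4 libraries, which were July 2016 females 2 and 6, June 2017 male 1 and September 2017 male 1. These 4 came from all 3 sessions and both sexes.

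Group differences in this ratio were tested by exact permutation of library labels, adjusted over 8 tests together with the ribosomal RNA to mRNA ratio. In females the mean log2 ratio was -0.38 in June 2017 and -0.18 in July 2016 (difference -0.21, exact permutation p = 0.0891, adjusted p = 0.354). In females of September 2017 it was -0.39, against the same -0.18 in July 2016 (adjusted exact permutation p = 0.354). Males averaged -0.19 and females of the same sessions -0.39 (difference 0.20, adjusted exact permutation p = 0.354). That difference was 0.11 without September 2017 male 1, and 0.11 within the shared sampling days (adjusted exact permutation p = 0.802). September differed from June 2017 by -0.05 (adjusted exact permutation p = 0.861). None of the 4 comparisons passed the threshold.

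The log2 ratio of summed ribosomal RNA to summed mRNA likewise gave no difference past the threshold. It averaged -5.60 in June 2017 females and -5.81 in September 2017 females, against -5.73 in July 2016 females. Within 2017 the September minus June difference was -0.27 (exact permutation p = 0.177, adjusted p = 0.354), and -0.18 without September 2017 female 2. The other 3 comparisons each had an adjusted exact permutation p of 0.861.

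**Figure D3:**
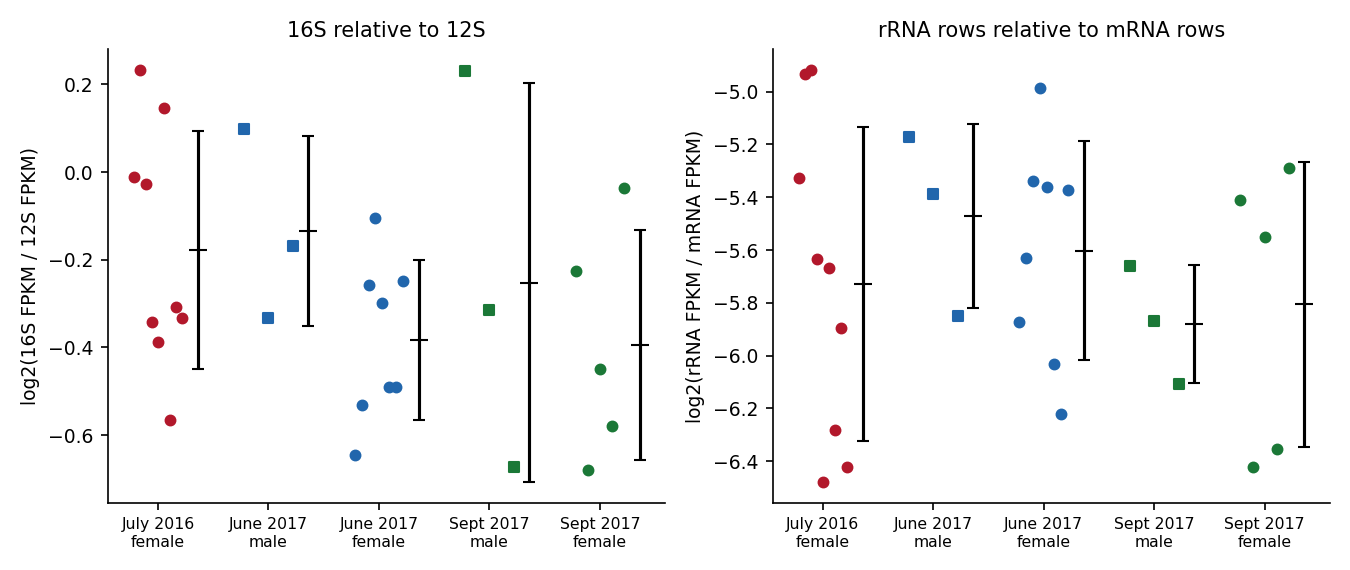
Log2 ratio of 16S to 12S (left) and of summed ribosomal RNA to summed mitochondrial mRNA (right) in each library by session and sex (squares are males, circles females), with the group mean ± SD beside the points. Points above 0 on the left are the 4 libraries in which 16S exceeded 12S. The groups overlap in both panels.

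Across the 28 libraries, the ribosomal RNA rows followed the mitochondrial mRNA level differently. These values share the scaling of their library, so common changes of scale enter every correlation between levels. The log2 level of 12S correlated with that of the summed mRNA rows (Pearson r = 0.71, Spearman rho = 0.72, adjusted permutation p = 0.000123 for both, over 40 relations). Leaving out the 2 libraries farthest from the median mRNA level gave r = 0.68. Within sessions r was 0.77 in July 2016, 0.81 in June 2017 and 0.57 in September 2017, where alone it did not pass the threshold (exact permutation p = 0.137). Per doubling of the mRNA level, 12S was higher by 0.42 on the log2 scale (SE 0.08), or by 0.39 (SE 0.07) with session and sex in the model.

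The 16S row showed no such relation. Its correlation with the summed mRNA level was r = 0.10 and rho = 0.13 (adjusted permutation p = 0.799 and 0.668), and 0.07 without the 2 farthest libraries. Within sessions r was 0.11 in July 2016, 0.47 in June 2017 and -0.60 in September 2017, none past the threshold. Per doubling of the mRNA level, 16S differed by 0.04 on the log2 scale (SE 0.07). The lowest and the highest mRNA library illustrate the pattern. July 2016 female 2 had a summed mRNA level of 12456 FPKM with 187 FPKM of 12S and 220.2 FPKM of 16S. July 2016 female 5 had a summed mRNA level of 48962 FPKM with 311 FPKM of 12S and 238 FPKM of 16S.

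**Figure D4:**
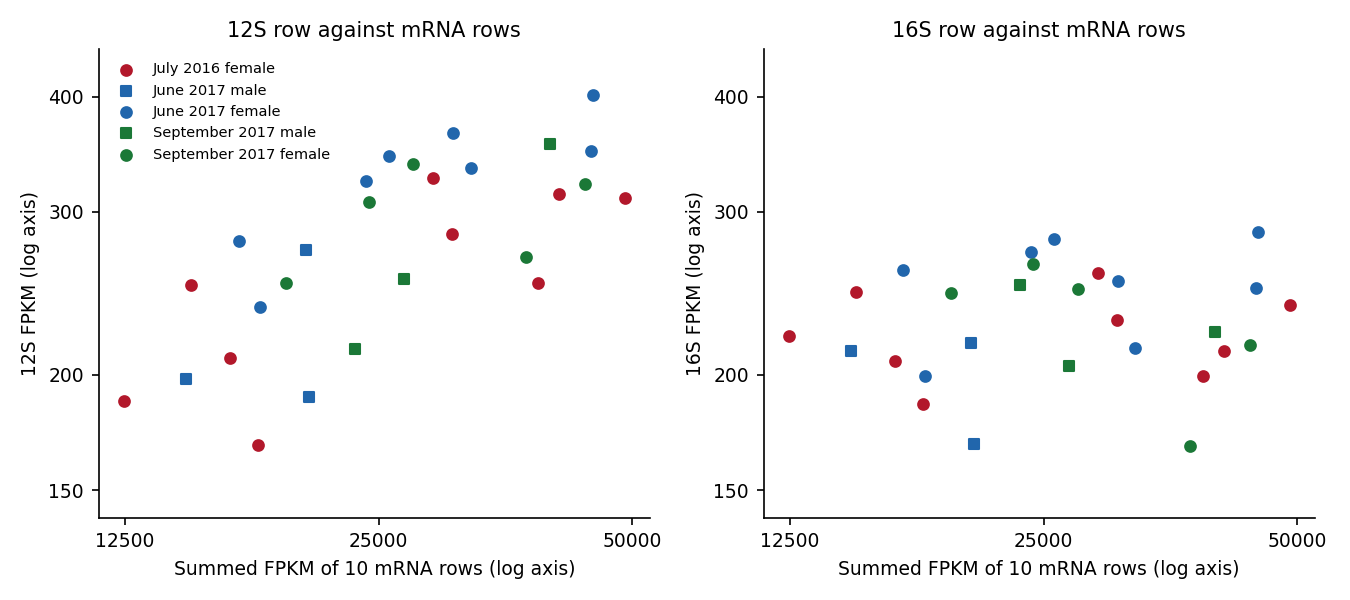
FPKM of 12S (left) and 16S (right) against the summed FPKM of the 10 mitochondrial mRNA rows, on log axes, with 1 point per library marked by session and sex. The 12S points climb with the mRNA level (r = 0.71) while the 16S points stay between 167 and 286 FPKM at every mRNA level (r = 0.10).

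The difference between the rows in this respect was tested through their ratio. The log2 ratio of 16S to 12S correlated with the summed mRNA level at r = -0.82 and rho = -0.86, where no resample was as extreme (permutation p = 1e-05, the smallest that 100000 resamples can give; adjusted p = 3.64e-05 and 4e-05). It was -0.81 without the 2 farthest libraries and -0.85 in the 22 females. Within sessions r was -0.92 in July 2016, -0.84 in June 2017 and -0.85 in September 2017, each past the threshold. Per doubling of the mRNA level the log2 ratio changed by -0.39 (SE 0.05), or by -0.38 (SE 0.05) with session and sex in the model. Animals with more mitochondrial mRNA per mapped fragment thus had less 16S relative to 12S, in each session.

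**Figure D5:**
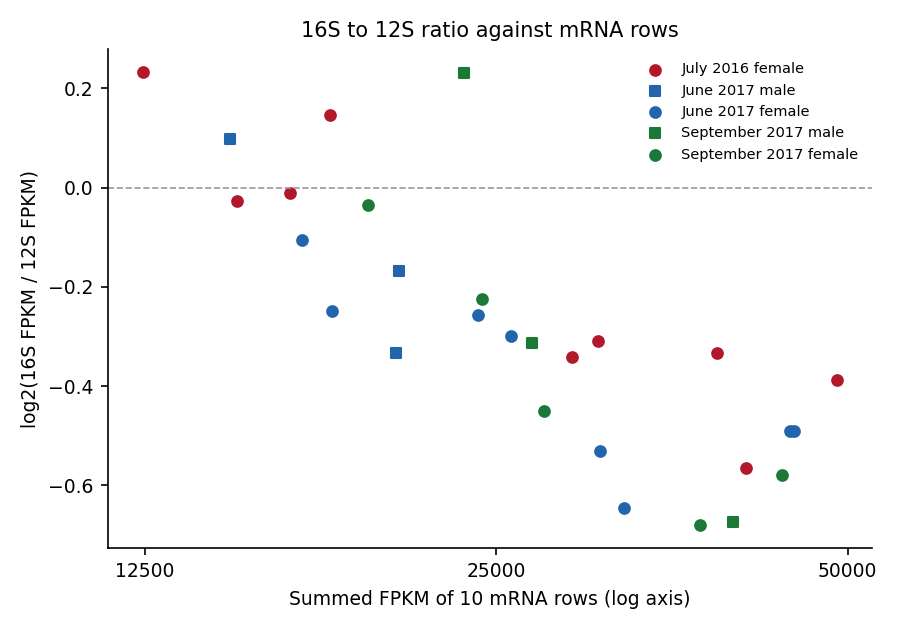
Log2 ratio of 16S to 12S against the summed FPKM of the 10 mitochondrial mRNA rows (log axis), with 1 point per library marked by session and sex. The ratio is lower at higher mRNA levels (r = -0.82). It is 0.23 in July 2016 female 2, the library lowest in mRNA, and also 0.23 in September 2017 male 1, which lies above the libraries of similar mRNA level.

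The relation to the ratio held for every mRNA row taken alone. Pearson r of a row with the 16S to 12S ratio ran from -0.63 for ND6 to -0.82 for ATP6, with adjusted permutation p-values of 0.001 or below for all 10 rows. With 12S alone, r ran from 0.37 for ND6 to 0.77 for COX1. Of these rows 9 passed the threshold, and ND6, encoded on the other strand than the remaining mRNA rows, did not (adjusted permutation p = 0.0896). With 16S alone, r ran from -0.22 for ND6 to 0.21 for COX1, and 0 of 10 passed. The mRNA rows move together across libraries, so these are not independent tests.

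The 12S and 16S levels were themselves correlated, at r = 0.60 and rho = 0.61 (adjusted permutation p = 0.00145 and 0.0015), and at 0.58 without the 2 farthest libraries. Within sessions r was 0.66 in July 2016 (exact permutation p = 0.0543), 0.82 in June 2017 (permutation p = 0.00195) and 0.05 in September 2017 (exact permutation p = 0.911). The relation over all libraries was therefore not seen within September 2017, where 16S was highest beside 308 FPKM of 12S in female 1 and lowest beside 268 FPKM in female 2.

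No relation of 12S, 16S or their ratio to the technical measures passed the threshold. Relative depth correlated with 12S at r = 0.22, with 16S at 0.00 and with their ratio at -0.27 (adjusted permutation p between 0.277 and 0.991). The share of summed FPKM held by the 10 highest rows of a library correlated with 12S at -0.12, with 16S at -0.05 and with the ratio at 0.10 (adjusted permutation p between 0.773 and 0.929). The relation of the summed mRNA level to these measures was not tested. The part of depth in the relations to the mRNA level was therefore not tested either. Relative depth was 0.81 in July 2016 female 2, the library lowest in mRNA, and 1.37 in July 2016 female 5, the highest. The next lowest in mRNA, June 2017 male 1 and July 2016 female 3, stood at 0.92 and 1.06. The next highest, June 2017 female 6 and June 2017 female 7, stood at 1.06 and 1.21. Relative depth was 1.48 in September 2017 female 1, the deepest library, whose summed mRNA level was 24310 FPKM. The sources used here give no RNA integrity values, and the part of RNA quality in the relations was not tested.

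As a description, every tested row outside the mitochondrial sequence was ranked by its Pearson r, over the 28 libraries, with the mean log2 value of 12S and 16S. Among these 13167 rows the most alike was NW_017843196.1:4395697-4402899 (r = 0.70, mean 16.2 FPKM), followed by NW_017843806.1:216799-234680 and NW_017842131.1:45082076-45086803 (r = 0.69 and 0.68). Next were NW_017843657.1:16567883-16624784 and NW_017844355.1:13281819-13491382, both at r = 0.68. The lowest were NW_017842657.1:331008-331798 (r = -0.71, 70.6 ± 247 FPKM) and NW_017844510.1:1108754-1153690 (r = -0.70, 3.67 ± 2.76 FPKM). The SD of the first of these was far above its mean. All the rows named here are the extremes of 13167 correlations, and none was tested. These intervals are on the assembly NIST Tur_tru v1 and carry no gene name.

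By the same measure the mitochondrial mRNA rows ranked behind the most alike nuclear rows. Among the 13167 rows outside the mitochondrial sequence they would place from rank 39 for COX1 to rank 984 for ND2, with ND6 at 4335. COX1 came first with r = 0.62. ATP6 followed at 0.58, then COX2 at 0.50, ND4 at 0.48, COX3 at 0.45, CYTB at 0.44, ND1 and ND5 at 0.43, ND2 at 0.39 and ND6 at 0.17. For 12S and 16S apart, COX1 had r = 0.77 and 0.21, and ND6 had 0.37 and -0.22.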

How the data were processed

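Skin RNA was column-purified with DNase treatment and sequenced on Illumina from directional libraries, per the labels' protocols. Cufflinks 2.2.1, TopHat2 2.1.1, Trimmomatic 0.33, FastQC 0.1 and Bowtie are named in the submitters' processing notes, and NIST Tur_tru v1 is the genome in the series' design text. The authors deposited 1 table of 28 columns whose unit is not written there. It was taken to be FPKM, since Cufflinks makes FPKM, the deposited values are not whole, and library totals are unequal. FPKM is relative to all mapped fragments of a library, so a few abundant rows can lower all others. The sources used here do not say whether counting used the strand.

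Values were tested as log2(FPKM + 1) with limma 3.58.1 in R 4.3.3 (additive session and sex, trend and robust settings), which understates changes of low rows. Ratios used exact permutation tests, and correlations 100000 resamples, exact within sessions under 10 libraries. All tests were two-sided and adjusted by the Benjamini-Hochberg method. The tests were checked on simulated data. Relative depth came from 4754 rows averaging under 0.5 FPKM and detected in 5 or more libraries. The title of July 2016 female 6 carries another year than its sampling date, and the date was used. The members and lists were chosen with earlier results of these data known. Named rows were all members, all mitochondrial rows of at least 500 bases starting after base 2700, and the 5 most and 2 least alike rows elsewhere. Alternatives were other pseudocounts, filters, scalings and library subsets, and sampling day as a block in 2017.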

Additional observations from a re-analysis of the deposited data

How the results depend on the processing

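Under no alternative run, including each library left out in turn, did 12S, 16S or either ratio pass the threshold between sessions, sexes or July days. Small differences changed sign, so no direction can be read from them. For September against June 2017, 12S was -0.0492 with median of ratios scaling and -0.139 in females only (log2), and -0.0715 to 0.0576 with 1 library left out. For 16S the same comparison gave 0.00389 without rows under 200 bases, 0.00615 when scaled without the mitochondrial rows, and -0.0875 to 0.0395 with 1 library left out. With 1 library left out, the ratio of 16S to 12S in that comparison gave -0.108 to 0.0184. The ribosomal RNA to mRNA ratio gave -0.205 to 0.0778 for September 2017 against July 2016 (0.00899 with the geometric mean of the mRNA rows) and -0.0486 to 0.108 for males against females. For June 2017 against July 2016 it moved without a change of sign in these runs, at 0.0326 to 0.228 (0.265 with the geometric mean). The late minus early July difference of 12S gave -0.133 to 0.168. The cause was not tested.

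Of the correlations, that of 12S with 16S was 0.664 within July 2016 and 0.0475 within September 2017. That of the mRNA level with 12S was 0.574 and with 16S -0.601 within September 2017, where 8 libraries limit the test. The correlation of the mRNA level with the ratio of 16S to 12S stayed past the threshold under all alternatives run for it.

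The number of rows called over the table moved by over 1.5 times with some settings: to between 604 and 960 against 955 for June 2017 minus July 2016, to between 98 and 324 against 257 for September 2017 minus July 2016 (145 to 169 without September 2017 female 2, 3, 4 or 5), and to between 0 and 32 against 5 for September minus June 2017. For males minus females it was 12, and 6 without June 2017 male 3. No pairing by replicate number was made because each library is a different animal and the labels give no such numbers. The block by sampling day, chosen after seeing the data, changed no call of 12S, 16S or the ratios; it gave -0.165 for the ribosomal RNA to mRNA ratio of males against females, and 6 rows called for that comparison. Absolute depth is unknown, so the counting error of the ribosomal RNA rows could not be set apart from the spread between animals.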

Other observations

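The 24 remaining mitochondrial rows, of which 22 are under 200 bases long, were mostly at 0. Of the 24, 11 were listed at 0 in every library, 12 were above 0 in 1 to 11 libraries and 1 in all 28. The row above 0 in all 28, bases 9504 to 9849, averaged 1143 FPKM. By position it is the mRNA gene ND3, which fell under the 500-base cut. So did the rows at bases 7809 to 8000 and 9921 to 10217, by position ATP8 and ND4L. The ATP8 row was at 0 in every library, and the ND4L row was above 0 in 1. A single short row reached 129979 FPKM in a library. The rows that touch the ribosomal RNA rows are of this kind. The 72-base row before 12S was above 0 only in June 2017 male 3, at 17782 FPKM. The 67-base row between 12S and 16S was listed at 0 in every library. The 75-base row after 16S was above 0 only in June 2017 female 4, at 13770 FPKM. By position these are transfer RNA genes. As FPKM times kilobases, the row before 12S stood at 1280 in June 2017 male 3, beside 184 for 12S in that library. The row after 16S stood at 1033 in June 2017 female 4, beside 272 for 12S there. The length used in scaling is not given, so for rows this short these products need not reflect shares of fragments.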
